A study of Mus musculus with 2 samples.

Results

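The 10 genes that encode the subunits of TFIIH, the complex that holds the binding site of triptolide, were followed in single-nucleus RNA-seq (snRNA-seq) of mouse dFLEx CDS tumors. They were taken by gene symbol from the 19059 features counted in every library, and each of the 10 symbols matched exactly 1 feature. CDS is CIC::DUX4 sarcoma, a soft tissue sarcoma driven by a fusion of the repressor CIC to the transcription factor DUX4. In the dFLEx CDS model an inverted fusion construct sits at Rosa26 and is switched on by Cre and FLPE plasmids, each under a CAG promoter, electroporated into the gastrocnemius muscle. CAG is active in most cell types, and the mice are immunocompetent. The untreated group held 4 tumors, labelled dFLEx CDS +/-. The other group held 4 dFLEx CDS tumors, with no zygosity given, from mice treated with Minnelide, a water-soluble prodrug of triptolide, at 0.42 mg/kg for 21 days. Treatment began once tumors could be felt, and the study used mice of both sexes. The age at collection, the time from the last dose to collection and whether the untreated mice received saline were not given in the sources used here. Each deposited matrix was treated as 1 tumor, and tumors were the replicates. Tumor numbers serve only as names.

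TFIIH opens promoter DNA for RNA polymerase II and damaged DNA for nucleotide excision repair. Its core holds XPB (Ercc3), the ATPase and translocase that triptolide binds, XPD (Ercc2), a helicase needed for repair, and the structural subunits encoded by Gtf2h1 to Gtf2h5. The CDK-activating kinase module, made of CDK7 (Cdk7), cyclin H (Ccnh) and MAT1 (Mnat1), phosphorylates the tail of the largest polymerase subunit and also activates cell cycle kinases. The question addressed is how the transcripts of the drug's target complex were distributed over tumors, treatment groups and cell classes.

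Retained libraries held 4449 to 10258 nuclei and 15878530 to 61950584 unique molecular identifiers (UMIs), and the median per nucleus ran from 880 in untreated tumor 4 to 4046.5 in Minnelide tumor 1. Clusters were named from marker genes: 30429 of 59357 nuclei were tumor-like (8 clusters), 9718 myocyte-like, 6744 fibroblast-like, 3135 endothelial-like, 1427 macrophage-like, 637 osteoclast-like and 620 pericyte-like, and 6647 stayed unnamed, 5711 of them in untreated tumor 4. Tumor-like nuclei carried the summed CIC::DUX4 target markers at a median of 20213 CPM over the 8 tumors, where CPM is the usual scaling of a gene's UMIs to library size. The same list stood at 7339 CPM in fibroblast-like, 7475 in endothelial-like, 10684 in macrophage-like and 9845 in myocyte-like nuclei. Transcripts of these markers were thus present in each of these classes, and their source was not tested. Unnamed nuclei held the list at a median of 16081 CPM (12325 to 19917) over 4 tumors, above each of these classes. The larger unnamed cluster held 6044 nuclei, 94.5% of them from untreated tumor 4. It had 11 tumor markers raised, but also 9 myocyte and 6 fibroblast markers. Whether unnamed nuclei were tumor cells was not tested, and the tumor-like results leave them out. Untreated tumor 4 kept 2657 tumor-like nuclei. Tumors of the same group had different constant barcode bases and shared 0 barcodes. Pairs across the groups with the same bases shared 49 to 132. Capture pools and sequencing runs were not given in the sources used here, so a batch that coincides with treatment cannot be told apart from it.

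The genes lie on several chromosomes (GRCm39, GENCODE M39), with Gtf2h2 and Cdk7 near each other on chromosome 13. Ercc2 (chr7:19115931-19129623) and Gtf2h1 (chr7:46445218-46473888) share a chromosome. Chromosome 13 carries Gtf2h2 (chr13:100596290-100629168), Cdk7 (chr13:100833535-100867481) and Ccnh (chr13:85337459-85414401), and chromosome 17 carries Gtf2h4 (chr17:35978621-35984648) and Gtf2h5 (chr17:6130061-6137387). Gtf2h3 lies at chr5:124717179-124735743 and Mnat1 at chr12:73158623-73320767. Ercc2, Gtf2h1, Gtf2h3, Cdk7, Ccnh and Mnat1 each overlap at least 1 counted protein-coding gene on the opposite strand (Klc3, Hps5, Eif2b1, Ccdc125, Rasa1, and Six4 with Trmt5). Ercc3, Gtf2h2, Gtf2h4 and Gtf2h5 overlap no counted protein-coding gene. How the counting used strand was not given in the sources used here, so counts of the former 6 are less certain.

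The promoters of Cdk7, Mnat1 and Gtf2h3 are shown as examples of the members called in at least 2 of the 4 contrasts of tumor-like nuclei with another class, since the tumor markers include the ETS factors Etv1, Etv4 and Etv5, known targets of CIC. Each runs from 250 bases before to 30 bases after the start of the canonical transcript in GRCm39, is written 5′ to 3′ along the gene, and has matches to the ETS core CGGAAG, on either strand, in capitals.
Cdk7 (chr13:100867451-100867730, minus strand): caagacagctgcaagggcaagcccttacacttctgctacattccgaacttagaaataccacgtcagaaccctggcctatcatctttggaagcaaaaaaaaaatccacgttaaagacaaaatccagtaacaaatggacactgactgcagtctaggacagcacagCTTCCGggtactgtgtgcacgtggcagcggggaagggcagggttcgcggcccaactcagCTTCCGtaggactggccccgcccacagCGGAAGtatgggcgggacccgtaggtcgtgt
Mnat1 (chr12:73170221-73170500, plus strand): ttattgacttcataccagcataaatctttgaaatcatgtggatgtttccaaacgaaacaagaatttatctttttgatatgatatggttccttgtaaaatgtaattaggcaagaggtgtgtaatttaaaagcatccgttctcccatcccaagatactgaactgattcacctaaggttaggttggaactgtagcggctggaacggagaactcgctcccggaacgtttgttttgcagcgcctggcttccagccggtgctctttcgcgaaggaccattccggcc
Gtf2h3 (chr5:124716929-124717208, plus strand): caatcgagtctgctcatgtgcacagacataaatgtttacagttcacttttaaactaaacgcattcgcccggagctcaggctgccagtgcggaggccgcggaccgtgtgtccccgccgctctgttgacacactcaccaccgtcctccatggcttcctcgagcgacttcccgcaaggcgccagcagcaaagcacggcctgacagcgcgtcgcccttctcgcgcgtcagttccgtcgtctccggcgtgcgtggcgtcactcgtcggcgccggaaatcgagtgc

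Cdk7 held 3 ETS core matches in this window, and Mnat1 and Gtf2h3 held 0. Among the 10 promoters Ercc3, Gtf2h1, Gtf2h5 and Cdk7 had at least 1 match, against 18.4% of the 18953 protein-coding promoters scanned. The octamers bound by CIC (TGAATGAA, TGAATGGA, TCAATGAA and TCAATGGA, both strands) were found in 0 of the 10 and in 3.26% of all promoters. A GC box (GGGCGG) was found in 6 of the 10 and in 43.6% of all, a CCAAT box (CCAAT) in 4 of the 10 and in 38.3%, and a TATAAA box in 0 of the 10 and in 11.9%. A GC box and an ETS core can share the letters CGG. The members' median GC content was 53.4% and that of all promoters 54.6%. These matches describe letters in the window and do not show binding.

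Ercc3 was among the least abundant of the 10 genes and the least variable. In all retained nuclei it stood at 12.95, 12.8, 13.6 and 14.0 CPM in untreated tumors 1 to 4 and at 12.1, 12.04, 13.3 and 12.3 CPM in Minnelide tumors 1 to 4. The highest tumor was 1.17-fold above the lowest, and the coefficient of variation (CV) over the 8 tumors was 5.56%. The median CV was 10.9% over the 10 members and 24.2% over all 9379 genes of at least 10 CPM. Gtf2h4, which encodes a core subunit that contacts XPB, varied most, with a CV of 28.9% and values from 4.60 CPM in untreated tumor 4 to 11.5 CPM in untreated tumor 1. Gtf2h5, the smallest subunit and a stabilizer of the core, followed with a CV of 23.5% and had its extremes in the same tumors, 18.7 and 38.6 CPM. Untreated tumor 4 had the lowest median UMI count per nucleus, and its part in these low values was not tested.

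Abundance differed strongly between the members. Mean levels in all retained nuclei were 201 CPM for Mnat1, 136 for Cdk7, 83.6 for Gtf2h1, 61.9 for Ccnh, 47.7 for Gtf2h2, 25.6 for Gtf2h5, 12.9 for Ercc3, 10.4 for Ercc2, 9.93 for Gtf2h3 and 8.08 for Gtf2h4 (n = 8). Per kilobase of gene span, a scale that takes reads to include introns, the order was Cdk7 at 4.00 CPM per kb, Gtf2h5 at 3.49, Gtf2h1 at 2.91, Gtf2h2 at 1.45, Gtf2h4 at 1.34, Mnat1 at 1.24, Ccnh at 0.805, Ercc2 at 0.759, Gtf2h3 at 0.535 and Ercc3 at 0.432. Per kilobase of merged exons Mnat1 was highest, at 30.2 CPM per kb, Ercc3 stood at 4.39 and Gtf2h3 was lowest, at 1.43. Mnat1, whose span is 162 kb, thus moved from the middle of the order to the top with the choice of length. The XPB gene was below the median of the members on every scale. Counts of a 3′ kit or of a probe set need not scale with length, so these orders are descriptions only.

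The subunit genes did not differ detectably between untreated and Minnelide tumors. Over all retained nuclei the summed level of the 10 genes was 602 ± 20.4 CPM in untreated and 591 ± 37.1 CPM in Minnelide tumors (SD, n = 4 each). In the edgeR quasi-likelihood test 0 of the 10 had an adjusted p under 0.05, as had 0% of the 13806 genes tested. At an unadjusted p under 0.05 the counts were 0 of the 10 and 1377 genes, or 9.97%. DESeq2 called 164 genes and 0 of the 10. The smallest p among the members was that of Cdk7, which stood at 118, 125, 131 and 142 CPM in untreated tumors 1 to 4 and at 164, 126, 148 and 132 CPM in Minnelide tumors 1 to 4. The groups overlapped, and the log2 difference was 0.28 ± 0.15 (SE, edgeR adjusted p = 0.554). Scaling by library size without TMM moved the median log2 difference of all genes from 0.0063 to -0.15 in all retained nuclei and from -0.0037 to -0.11 in tumor-like nuclei, and that of the members from 0.093 to -0.053 and from 0.082 to -0.023, so the signs of small differences here depend on the scaling. Groups overlapped for each of the 10 genes, while 7.22% of all genes of at least 10 CPM had groups that did not. The all-nuclei values mix classes whose shares varied, with myocyte-like nuclei from 0.911% to 51.1% and tumor-like nuclei from 22.6% to 85.8% of a tumor, and in such sums fewer cells of a type and less RNA per cell cannot be told apart.

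Within tumor-like nuclei, the cells taken to carry the fusion, the same held. Ercc3 was at 12.6, 11.5, 12.7 and 12.2 CPM in untreated tumors 1 to 4 and at 12.01, 11.2, 13.6 and 10.7 CPM in Minnelide tumors 1 to 4. Minnelide tumors held both the highest and the lowest value. The log2 difference was 0.055 (95% interval -0.32 to 0.43). Ercc2 was at 11.3, 9.72, 11.96 and 13.2 CPM in untreated and at 13.2, 10.4, 9.30 and 8.26 CPM in Minnelide tumors, with a log2 difference of -0.075 (-0.58 to 0.43). Of the structural subunits, Gtf2h1 was at 79.9, 95.6, 81.4 and 106 CPM in untreated and 83.1, 73.9, 81.9 and 85.8 CPM in Minnelide tumors, with a log2 difference of -0.070 (-0.45 to 0.30). Gtf2h4 had the widest interval, 0.29 (-0.47 to 1.04), on 21 UMIs in untreated tumor 4 and 28 in Minnelide tumor 2.

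**Figure D1:**
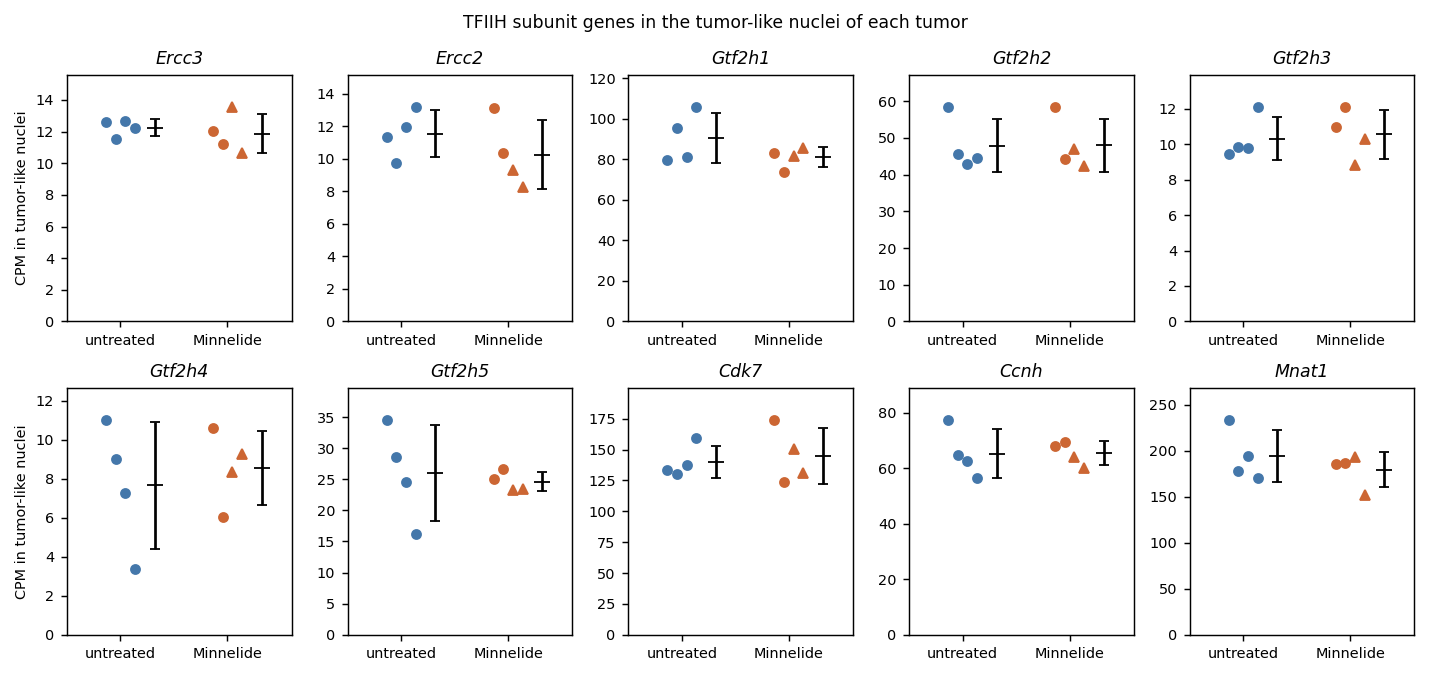
Library-size-scaled UMIs (CPM, y axis from 0) of each TFIIH subunit gene in the tumor-like nuclei of each tumor, for untreated (blue) and Minnelide (orange) tumors, with the mean and SD of 4 tumors in black. Triangles are the Minnelide tumors whose matrices carry the word nonresponder. The groups overlap in each panel, and Gtf2h4 spreads from 3.38 to 11.02 CPM among untreated tumors alone.

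The kinase module was likewise spread over both groups in tumor-like nuclei. Cdk7 was at 133, 130, 138 and 159 CPM in untreated and 174, 124, 151 and 131 CPM in Minnelide tumors, with a log2 difference of 0.14 (-0.24 to 0.51). Ccnh was at 77.3, 64.9, 62.5 and 56.4 CPM in untreated and 68.1, 69.4, 63.9 and 60.0 CPM in Minnelide tumors, with a difference of 0.11 (-0.13 to 0.35). Mnat1 was at 234, 178, 195 and 171 CPM in untreated and 186, 187, 194 and 152 CPM in Minnelide tumors, and its difference was -0.0069 (-0.28 to 0.26). Minnelide tumors lay inside the untreated range for Ccnh, while 2 lay outside it for Cdk7 and 1 for Mnat1. The groups overlapped for each of the 10 genes, beside 6.46% of all genes of at least 10 CPM whose groups did not. Of the 10 members, 0 were called, with edgeR adjusted p-values from 0.742 upward, and 0% of the 12876 genes tested were called. At an unadjusted p under 0.05 the counts were 0 members and 1212 genes (9.41%), and DESeq2 called 93 genes and 0 members. The median size of the log2 difference was 0.092 over the members and 0.25 over all genes tested, which were not matched to the members in abundance.

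In the fibroblast-like nuclei of the same tumors 0 of the 10 members and 0% of 11417 genes were called. At an unadjusted p under 0.05 the counts were 0 members and 440 genes (3.85%), and DESeq2 called 13 genes and 0 members. Point estimates ran from -0.35 for Gtf2h5 to 0.23 for Gtf2h4. The difference between the Minnelide effects in tumor-like and fibroblast-like nuclei was tested as an interaction. It was called for 0 of the 10 members and 0% of 12763 genes by edgeR, and 0 members and 610 genes (4.78%) had an unadjusted p under 0.05. DESeq2 called 9 genes and 0 members. Gtf2h5 had the smallest interaction p of the members, with an effect 0.37 higher on the log2 scale in tumor-like nuclei (95% interval -0.026 to 0.77, edgeR adjusted p = 0.944).

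**Figure D2:**
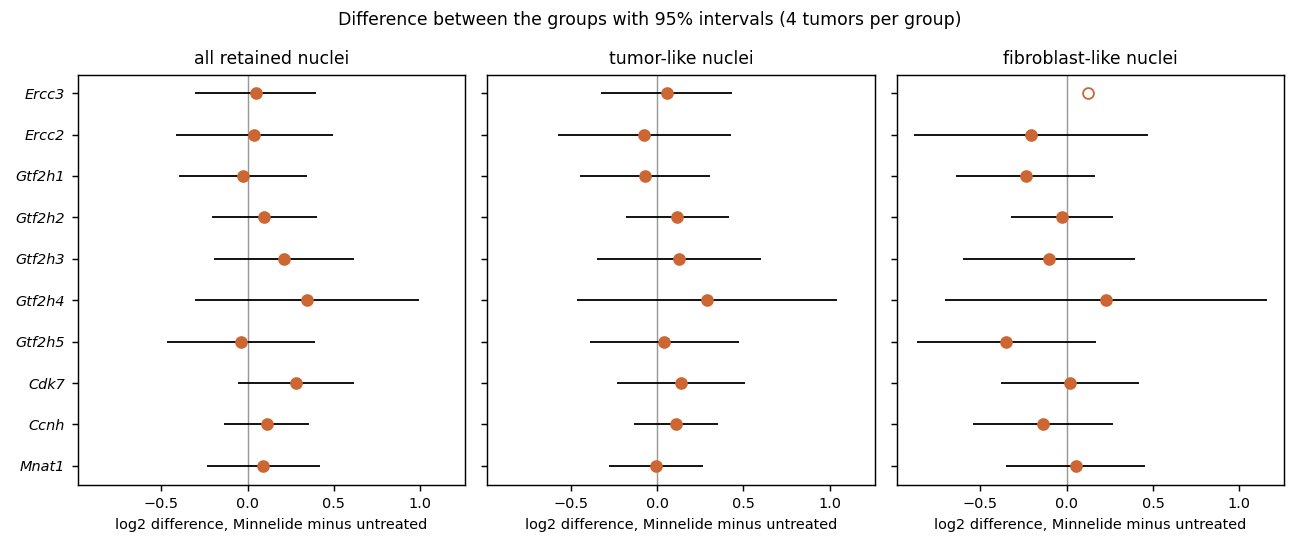
Fitted log2 difference between Minnelide and untreated tumors (x axis) for each subunit gene (y axis) in all retained, tumor-like and fibroblast-like nuclei, with 95% intervals as lines and 4 tumors per group. The open circle (Ercc3, fibroblast-like) has no interval because its p came from edgeR's Poisson bound. Each interval drawn includes 0.

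Names of the 4 Minnelide matrices add a word on response that the labels lack, so values by this word are given without a test. Tumors 1 and 2 carry responder, and tumors 3 and 4 carry nonresponder. In tumor-like nuclei Ercc3 averaged 11.6 CPM in the former and 12.1 CPM in the latter, and the pairs overlapped. Ercc2, Gtf2h3, Gtf2h5 and Ccnh were higher in both responder tumors than in either nonresponder tumor, with means of 11.8 against 8.78, 11.5 against 9.56, 25.8 against 23.4 and 68.7 against 61.9 CPM. Such separation of 2 tumors from 2 was seen for 4 of the 10 members and for 27.4% of all genes of at least 10 CPM.

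Myocyte-like nuclei gave the only separation of the treatment groups among the 5 largest classes. Cdk7 was at 78.4, 115, 101 and 108 CPM in untreated and 117, 130, 171 and 171 CPM in Minnelide tumors there, on 50 to 2332 UMIs. It was 1 of 10 members with groups that did not overlap, and 6.36% of all genes of at least 10 CPM in this class had such groups. No treatment test was run in myocyte-like nuclei. Their 2457-nucleus cluster of low depth came almost wholly from untreated tumor 1, the tumor with the lowest Cdk7 level in this class. In the smaller osteoclast-like class the groups did not overlap for Gtf2h1. It was at 91.2 to 153 CPM in untreated and 46.9 to 88.6 CPM in Minnelide tumors, on as few as 6 UMIs. The share of all genes with such groups was not computed there, and no treatment test was run.

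In the 4 tested class contrasts, Ccnh was called higher in tumor-like nuclei in 3 of 4 contrasts and Cdk7 and Gtf2h3 in 2 each, within the same 8 tumors. Over all genes tested 44.2% to 52.5% were called in a contrast, and 23.2% to 26.7% were called higher. The share of all genes called in several contrasts was not computed. Tumor-like nuclei held the 10 genes at a summed 595 ± 40.7 CPM (SD, n = 8), fibroblast-like at 591 ± 36.0, myocyte-like at 593 ± 43.8, endothelial-like at 546 ± 50.4 and macrophage-like at 541 ± 55.9. Ercc3 was called in none of the 4 class contrasts, that is 0 of 4, with log2 differences of -0.16, -0.00055, -0.17 and -0.27 against fibroblast-like, endothelial-like, macrophage-like and myocyte-like nuclei. Its tumor-like range, 10.7 to 13.6 CPM, lay inside its ranges in endothelial-like, macrophage-like and myocyte-like nuclei, where single libraries held as few as 7, 2 and 2 UMIs. The fibroblast-like range, 11.99 to 15.98 CPM, did not contain it. Within tumors Ercc3 was lower in tumor-like nuclei in 7 of 8 against fibroblast-like and 5 of 8 against endothelial-like nuclei. It was lower in 6 of 8 against macrophage-like and 7 of 8 against myocyte-like nuclei.

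Against fibroblast-like nuclei 4 of the 10 members were called, 3 higher and 1 lower in tumor-like nuclei. Over all 12064 genes 52.5% were called, 26.7% higher and 25.8% lower, so the members' share was near the background. Gtf2h1, which encodes the p62 subunit that recruits TFIIH to other factors, was higher in 8 of 8 tumors. Its range was 73.9 to 106 CPM (median 82.5) in tumor-like and 55.9 to 93.2 CPM (median 70.3) in fibroblast-like nuclei, a log2 difference of 0.32 ± 0.076 (SE, edgeR adjusted p = 0.00515). Ercc2 was higher in 7 of 8 tumors, with medians of 10.9 and 8.58 CPM and a log2 difference of 0.47 ± 0.14 (edgeR adjusted p = 0.0197). Ccnh was higher in 8 of 8 tumors by 0.25 ± 0.078 on the log2 scale (edgeR adjusted p = 0.0198), although its ranges of 56.4 to 77.3 and 39.95 to 73.2 CPM overlapped. Mnat1 fell below its fibroblast-like level in 7 of 8 tumors, with medians of 186 and 224 CPM and a log2 difference of -0.26 ± 0.094 (edgeR adjusted p = 0.0397). The Mnat1 call was lost when any of untreated tumors 2, 3 and 4 or Minnelide tumors 1, 3 and 4 was left out, with edgeR adjusted p up to 0.109, and also with DESeq2 (adjusted p = 0.0548) and with no filter on low counts (edgeR adjusted p = 0.117), while DESeq2 called Cdk7 higher (adjusted p = 0.0403). The Ccnh call was lost without Minnelide tumor 3 (edgeR adjusted p = 0.0515), and without the tumor block the calls of Ccnh and Gtf2h1 were lost (edgeR adjusted p = 0.0609 and 0.0509).

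Against endothelial-like nuclei 3 of 10 members were called, each higher in tumor-like nuclei, beside 46.2% of 11455 genes in either direction, 24.1% higher and 22.1% lower. Cdk7 was higher in 8 of 8 tumors, at 124 to 174 CPM (median 136) against 54.5 to 139 CPM (median 88.5). The log2 difference was 0.63 ± 0.13 (edgeR adjusted p = 0.00251). Gtf2h3, the gene of the p34 core subunit, was higher in 7 of 8 tumors, with medians of 10.1 and 7.07 CPM and a log2 difference of 0.45 ± 0.16 (edgeR adjusted p = 0.0437). Ccnh was higher in 8 of 8 tumors by 0.27 ± 0.096 on the log2 scale (edgeR adjusted p = 0.0373). The Gtf2h3 call was lost without any of untreated tumors 2, 3 and 4 or Minnelide tumors 1, 2 and 4, with edgeR adjusted p up to 0.123, and also with DESeq2 (adjusted p = 0.0518), no filter, nuclei of at least 1000 UMIs or Leiden resolution 0.5 (edgeR adjusted p = 0.0543, 0.0531 and 0.0801). That of Ccnh was lost without any of untreated tumors 1 and 2 or Minnelide tumors 1, 2 and 4, with edgeR adjusted p up to 0.0979, at resolution 0.5 (0.0629) and without the tumor block (0.0724). Gtf2h1 was called higher with DESeq2 (adjusted p = 0.0439) and at resolution 0.5 (edgeR adjusted p = 0.0309), where Mnat1 was called lower (edgeR adjusted p = 0.00805). Cdk7 stayed called without each of the 8 tumors. The summed endothelial markers ran from 429 to 3626 CPM (median 588) in tumor-like and from 3608 to 11688 CPM in endothelial-like nuclei, so their ranges overlapped. A tumor-like cluster of 3174 nuclei, 96.6% of them from untreated tumor 1, had 8 endothelial markers raised. The part of this overlap in the contrast was not tested.

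Macrophage-like nuclei showed the largest differences. There 3 of 10 members were called, each higher in tumor-like nuclei, beside 44.2% of 11039 genes in either direction, 23.2% higher and 21.1% lower. Cdk7 was higher in 8 of 8 tumors, against 71.3 to 124 CPM (median 99.2) in macrophage-like nuclei, by 0.70 ± 0.098 on the log2 scale (edgeR adjusted p = 4.68e-05). Mnat1, which assembles CDK7 with cyclin H, was higher in 8 of 8 tumors, against 119 to 170 CPM (median 145), by 0.52 ± 0.11 (edgeR adjusted p = 0.00165). Mnat1 thus lay above its macrophage-like and below its fibroblast-like level in the same tumor-like nuclei. Gtf2h3 was higher in 7 of 8 tumors by 1.27 ± 0.38 on the log2 scale (edgeR adjusted p = 0.0145), but the 8 macrophage-like libraries held 19 Gtf2h3 UMIs in all, and its lowest value was 0 CPM. These 3 calls stayed without each of the 8 tumors. Gtf2h1 and Gtf2h2 averaged 111 and 67.6 CPM in macrophage-like nuclei, above 86.0 and 47.9 CPM in tumor-like nuclei, and neither difference was called.

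Myocyte-like nuclei differed from tumor-like nuclei in 2 of 10 members, 1 in each direction, beside 47.6% of 12321 genes, of which 24.9% were higher and 22.7% lower. Ccnh was higher in tumor-like nuclei in 8 of 8 tumors, at a median of 64.4 against 47.8 CPM, by 0.43 ± 0.10 on the log2 scale (edgeR adjusted p = 0.00474). Gtf2h4 was lower in tumor-like nuclei in 8 of 8 tumors, at a median of 8.69 against 13.7 CPM, with a log2 difference of -0.60 ± 0.19 (edgeR adjusted p = 0.0193). The Gtf2h4 call was lost without untreated tumor 2 (edgeR adjusted p = 0.0601), at Leiden resolution 0.5 (0.0508) and without the tumor block (0.1003). When 2 shallow myocyte-like clusters of 3502 nuclei, in which markers of many classes were raised, were left out, Mnat1 was also called lower in tumor-like nuclei, by a log2 difference of -0.38 (edgeR adjusted p = 0.0312).

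**Figure D3:**
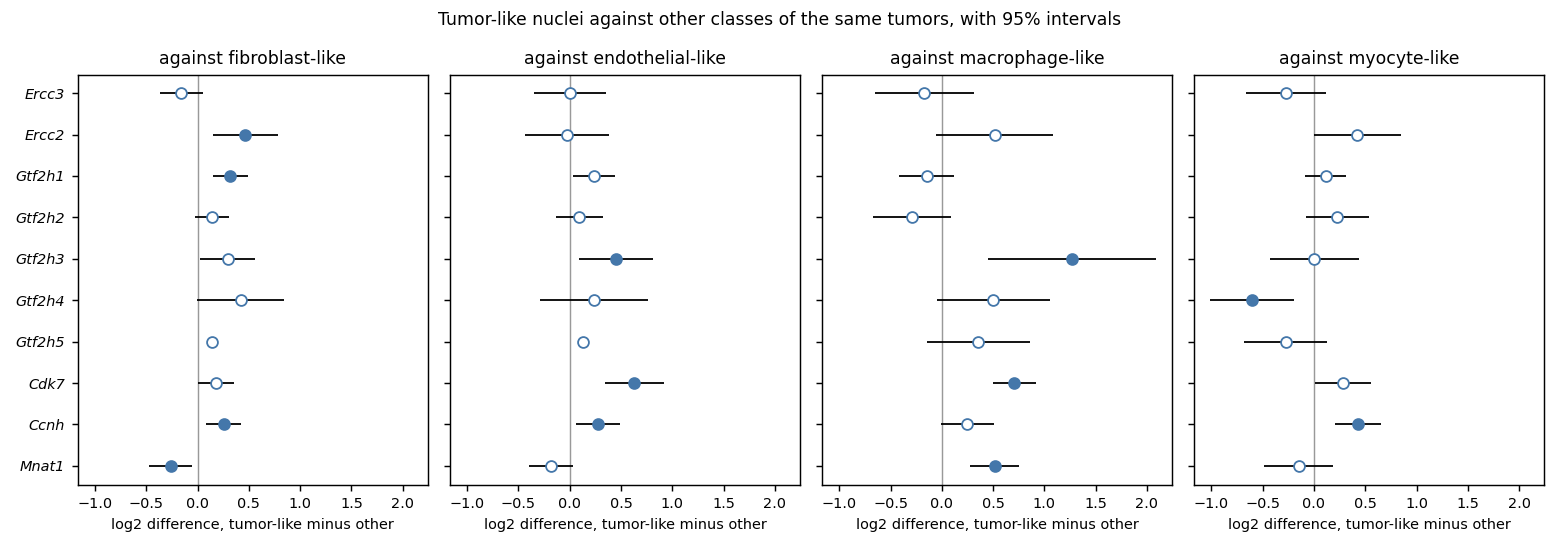
Fitted log2 difference of tumor-like minus another class (x axis) for each subunit gene (y axis) in 8 tumors, with 95% intervals as lines. Filled circles have an edgeR adjusted p under 0.05. Cdk7 is filled against endothelial-like and macrophage-like nuclei, Ccnh against 3 of the 4 classes, and Ercc3 against 0 of them.

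Depth and the level of the tumor markers differed between classes. Median UMIs per nucleus ran from 1653 to 5370 in tumor-like, 2001 to 4153 in fibroblast-like, 1800 to 4733 in endothelial-like, 1318 to 3337 in macrophage-like and 938 to 3688 in myocyte-like nuclei. The tumor marker levels in each class are given above, and the part of either in the class differences was not tested. With each nucleus thinned to 1000 UMIs, Cdk7 was detected in a mean of 12.9% of tumor-like, 12.05% of fibroblast-like, 11.6% of myocyte-like and 8.73% of endothelial-like and of macrophage-like nuclei. Mnat1 was detected in 16.8% of tumor-like, 19.3% of fibroblast-like and 13.5% of macrophage-like nuclei at the same depth. Ercc3 was detected in 1.25% of tumor-like nuclei and in 1.23% to 1.37% of the other 4 classes, and free RNA cannot be told apart from expression at such shares.

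**Figure D4:**
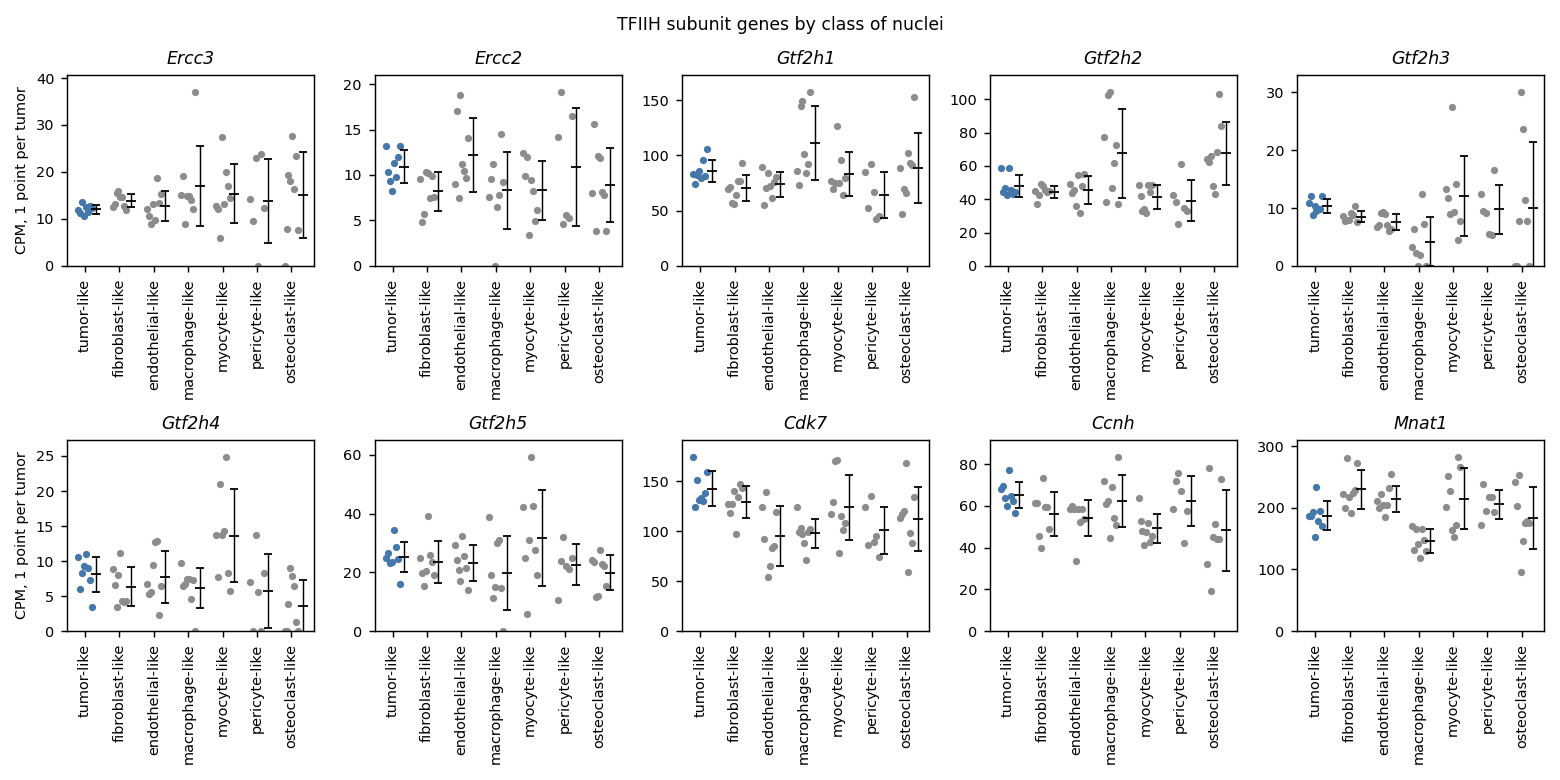
Library-size-scaled UMIs (CPM, y axis from 0) of each subunit gene in 7 classes of nuclei, with 1 point per tumor and the mean and SD in black. Pericyte-like nuclei have 6 tumors and the other classes 8. Ercc3 stays near 12.1 CPM in tumor-like nuclei, while Gtf2h4 reaches 24.8 CPM in a myocyte-like library.

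In the smaller classes some members had means outside the range of the 5 larger ones. Gtf2h4 averaged 3.58 ± 3.79 CPM in osteoclast-like nuclei, against 6.20 to 13.6 CPM in the larger classes, and was higher in tumor-like nuclei in 8 of 8 tumors. That mean rested on 11 Gtf2h4 UMIs in all, with 0 to 4 per library. In pericyte-like nuclei Gtf2h1 averaged 64.1 ± 20.8, Gtf2h2 39.2 ± 12.3 and Gtf2h4 5.78 ± 5.27 CPM, below the lowest means of the larger classes at 70.6, 41.4 and 6.20 CPM. Osteoclast-like nuclei (n = 8) held Ercc3 at 15.0 ± 9.19 CPM, Cdk7 at 112 ± 32.3 CPM and Gtf2h2 at 67.5 ± 19.0 CPM. Pericyte-like nuclei (n = 6) held Ercc3 at 13.8 ± 8.90 CPM, Cdk7 at 101 ± 23.8 CPM and Ccnh at 42.5 to 75.8 CPM (median 62.7). The Gtf2h2 mean in osteoclast-like nuclei was close to that in macrophage-like nuclei. The Gtf2h4 mean in pericyte-like nuclei rested on 13 UMIs. No test was run on either class, and libraries with 0 UMIs of Ercc3 or of Gtf2h4 were present in both.

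Because the kinase module also serves the cell cycle, tumor-like nuclei were compared by 15 mitotic genes that include none of the members. After thinning to 1000 UMIs, nuclei with at least 3 UMIs of this list were set against nuclei with 0. The first kind numbered 1474 of 11984 tumor-like nuclei in untreated and 4329 of 18445 in Minnelide tumors, and the second 5323 and 5512. Single tumors held 132 to 1743 nuclei of the first kind, and their share was not tested between the groups. Of the 10 members 0 were called, and 0 had an unadjusted p under 0.05 by edgeR or were called by DESeq2, while 914 of 10885 genes (8.40%) were called, 5.65% higher and 2.75% lower. Over all genes 2266 (20.8%) had an unadjusted p under 0.05, and DESeq2 called 711. Mean levels in list-positive and list-negative nuclei were 135 ± 24.3 and 144 ± 16.3 CPM for Cdk7, 62.0 ± 11.8 and 67.9 ± 5.82 CPM for Ccnh, and 185 ± 22.7 and 185 ± 25.2 CPM for Mnat1 (SD, n = 8). The log2 difference of Mnat1 was -0.0010 (95% interval -0.11 to 0.10) and that of Ccnh was -0.099 (-0.24 to 0.046). Ercc3 was at 12.8 ± 2.21 and 11.8 ± 2.54 CPM, with a log2 difference of -0.0041 (-0.26 to 0.25). The median size of the difference was 0.027 over the members and 0.088 over all genes tested, again not matched in abundance.

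**Figure D5:**
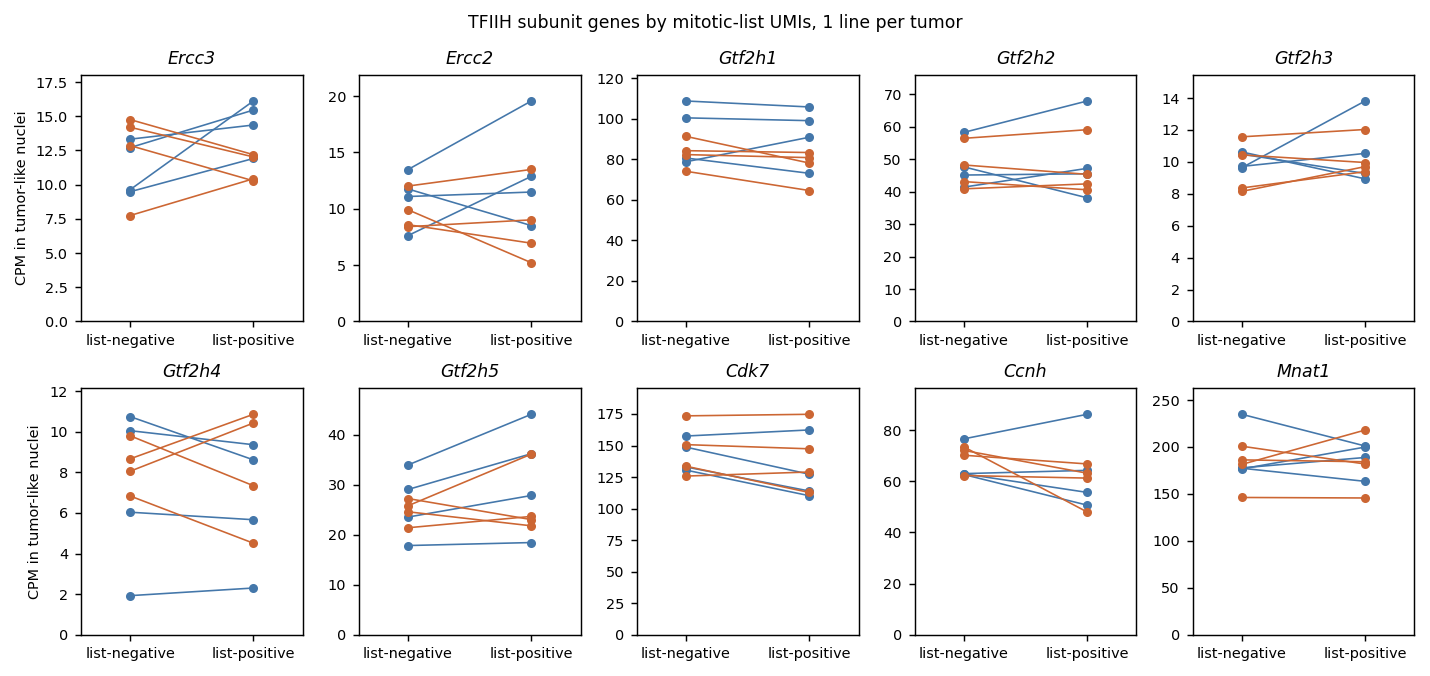
Library-size-scaled UMIs (CPM, y axis from 0) of each subunit gene in tumor-like nuclei without and with mitotic-list UMIs, with 1 line per tumor (blue untreated, orange Minnelide). Each panel holds tumors in which the level is higher and tumors in which it is lower with the list, and the Mnat1 means are 185 CPM on both sides.

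Other genes of the pathway were taken from 4 lists: 12 RNA polymerase II subunits, 18 other general transcription factors, 15 elongation kinases and pausing factors, and 16 nucleotide excision repair genes. Between Minnelide and untreated tumors edgeR called 0 genes of each list in all retained, tumor-like and fibroblast-like nuclei. It called 0% of all genes tested there, so these counts do not show the listed genes to be unchanged. Against fibroblast-like nuclei 3 polymerase subunits were higher and 0 lower of 12, 6 general factors higher and 2 lower of 18, 4 elongation genes higher and 1 lower of 15, and 4 repair genes higher and 3 lower of 16. Over all genes 52.5% were called, 26.7% higher and 25.8% lower, and the called share of each list was below that. The repair genes Ddb2, a damage sensor, and Rpa1, which coats single-stranded DNA, were higher by 0.91 and 0.68 on the log2 scale (edgeR adjusted p = 3.3e-05 and 7.49e-05). The elongation factor Ell2 was lower by a log2 difference of -2.58 and the TBP-associated factor Taf9b by -0.97 (edgeR adjusted p = 2.51e-05 and 0.00346). Ell2 was also lower in the other 3 class contrasts, with -1.56, -2.43 and -3.27 against endothelial-like, macrophage-like and myocyte-like nuclei (edgeR adjusted p = 0.000835, 1.57e-06 and 1.7e-06).

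Ddb2 was also higher in tumor-like than in endothelial-like, macrophage-like and myocyte-like nuclei, by 1.123, 0.67 and 0.85 (edgeR adjusted p = 0.000724, 0.00127 and 4.53e-05). Over all genes 46.2%, 44.2% and 47.6% were called against endothelial-like, macrophage-like and myocyte-like nuclei, and each list's called share was below these. Against endothelial-like nuclei 2 polymerase subunits, 2 general factors with Tbp at 0.48, 1 elongation gene and 4 repair genes were higher, and 1 elongation gene and 2 repair genes with Xpc at -0.51 were lower (edgeR adjusted p = 0.00416 for Tbp and 0.00618 for Xpc). Against macrophage-like nuclei 1, 1, 1 and 3 genes of the lists, in the order above, were higher and 0, 3, 2 and 1 lower, with Taf6 at 0.83 and Cdk9 at -0.77 (edgeR adjusted p = 0.000322 and 0.000172). Against myocyte-like nuclei 1, 2, 0 and 3 were higher and 2, 3, 1 and 4 lower, with Rpa1 at 0.59 (edgeR adjusted p = 0.000437). By mitotic-list UMIs 1 polymerase subunit (Polr2a, 0.17) and 2 general factors (Taf5, 0.39, among them) were higher and 2 repair genes (Ercc4, -0.32, and Xpa, -0.27) were lower (edgeR adjusted p = 0.0165, 0.0189, 0.0212 and 0.0249), beside 0 of the 10 TFIIH genes and 8.40% of all genes.

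The members did not share a common pattern over tumors and classes. Over 54 sums of a tumor and class with at least 50000 UMIs, Pearson's r of log2(CPM + 1) between pairs of members had a median of -0.012 and ran from -0.43 (Gtf2h2 and Gtf2h3) to 0.59 (Gtf2h3 and Gtf2h4). Sums of the same tumor share a library, and counting noise is large in Gtf2h3 and Gtf2h4. The genes most like Ercc3 among 9744 were Cant1 (r = 0.78), Haus2 (0.75), Aldh4a1 (0.73), Snx15 (0.73) and Siah2 (0.71). Of the members above 10 CPM, Gtf2h1 ranked highest with r = 0.11 and rank 2530, and Mnat1 lowest with r = -0.27 and rank 9404. Ercc3 UMIs ran from 2 to 16 in the macrophage-like, 0 to 18 in the osteoclast-like and 0 to 10 in the pericyte-like sums. The part of such low counts in these r values was not tested, and the values are a description only.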

How the data were processed

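snRNA-seq counts of 8 dFLEx CDS tumors were analysed. The files deposited by the authors hold raw UMI counts, made with Cell Ranger (9.0.1 per the file headers, 7.0.1 in the submitters' processing notes) on mm39. The labels describe a 3′ kit with on-chip multiplexing. The annotation was not given in the sources used here, and the features held no ribosomal protein genes. Whether the counts come from a probe set was therefore not settled. Deposited libraries held 5210 to 12615 nuclei and 18487409 to 73211599 UMIs, and depth covers counting error only.

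Within each tumor, low-quality nuclei were removed by a fitted mixture model of mitochondrial percent on detected genes (posterior 0.75, at least 200 genes), and Scrublet doublets were removed at 0.8% per 1000 nuclei (scanpy 1.11.5). Clusters (2000 variable genes, 30 components, 40 neighbors, Leiden resolution 1.0, igraph 0.11.9) were named from marker lists by raised markers within each tumor, where at least 3 markers had to be 1.5-fold up. A cluster whose leading genes were those of another class stayed unnamed, a rule set after the clusters were seen. The members and lists were chosen with earlier results of these data known.

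UMIs were summed per tumor and class (at least 20 nuclei) and tested with edgeR 4.0.16 (TMM, quasi-likelihood, filterByExpr, Benjamini-Hochberg over all genes tested, threshold 0.05), with tumor as a block for contrasts of classes. In a block fit both classes come from the same animal, which is where the pairing comes from. edgeR raises some p-values to those of a Poisson fit, and no SE or interval is given for these. All 10 members passed the filter in each of the 9 comparisons. DESeq2 1.42.0, no TMM, no filter, deeper nuclei, more doublets removed, another resolution, no block and each tumor left out were alternatives. On simulated data for the treatment comparison in tumor-like nuclei (12876 genes) the test recovered 98% of genes changed by 1 on the log2 scale. Whether the simulated spread between tumors matched the real one was not tested, so this share need not hold for the members. In the real comparison the members' SEs ran from 0.11 for Ccnh to 0.33 for Gtf2h4. The Gtf2h4 interval reached 1.04, so a change of 1 was not excluded for that gene. Genes named from the pathway lists are at most 2 per direction with the smallest p among those called in a comparison. A pathway gene and a promoter that this choice would have named are not reported here. The smallest number of libraries, 4 per group, limits precision, and nothing states whether matrices share an animal.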

Additional observations from a re-analysis of the deposited data

Results flagged for a closer look

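In 40 groups of 4 tumors (10 genes, 2 treatment groups, all retained and tumor-like nuclei), 3 held a tumor whose gap to its nearest neighbor, as a share of the group's range, exceeded Dixon's 95% critical value. Chance gives such a value in about 1 in 20 groups. In all retained nuclei Gtf2h1 stood at 69.8 CPM in Minnelide tumor 2, below the next tumor at 80.6 and the highest at 82.6 CPM (share 0.844). In tumor-like nuclei Gtf2h2 stood at 58.5 CPM in untreated tumor 1, above 45.5 and 42.9 CPM (share 0.835). Gtf2h3 stood at 12.1 CPM in untreated tumor 4, above 9.86 and 9.43 CPM, on 75 UMIs (share 0.837).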

How the results depend on the processing

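Of 590 values under settings other than a left-out tumor 36 changed sign, and of 720 with a tumor left out 53 did. None of the sign changes crossed the threshold, and their cause was not tested. DESeq2 called 164, 93, 13 and 9 genes for treatment in all retained, tumor-like and fibroblast-like nuclei and for the interaction, where edgeR called 0, and 0 members in each. Leaving out 1 tumor gave 0 to 1 genes called in all retained nuclei, the 1 without Minnelide tumor 2. Members called ranged over left-out tumors from 2 to 5 against fibroblast-like, 1 to 3 against endothelial-like, 3 to 4 against macrophage-like and 1 to 3 against myocyte-like nuclei. Leiden resolution 0.5 gave 1 member called against myocyte-like nuclei, and no macrophage-like class, so that contrast was not run there.

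The tumor pairs both classes of a contrast, so class contrasts had the replicate block. Without it 2 members were called against fibroblast-like nuclei and 1 against myocyte-like nuclei, 2680 genes against endothelial-like nuclei in place of 5290, and 165 genes by the mitotic list in place of 914. Between treatment groups no paired analysis was possible because the labels give no replicate numbers that tie tumors of the groups.

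Signed log2 values that changed sign are as follows. With library size without TMM the values were Ercc2 -0.10, Ercc3 -0.097, Gtf2h2 -0.051, Ccnh -0.041 and Mnat1 -0.056 (treatment in all retained nuclei), Ercc3 -0.044, Gtf2h5 -0.084 and Ccnh -0.00095 (treatment in tumor-like nuclei), Cdk7 -0.024 (treatment in fibroblast-like nuclei), Gtf2h3 -0.019 (tumor-like against myocyte-like) and Ercc2 -0.018 and Gtf2h4 -0.0097 (the mitotic-list contrast). With DESeq2 the values were Mnat1 0.00023 (treatment in tumor-like nuclei), Ercc3 0.027 (tumor-like against endothelial-like) and Ercc2 -0.010, Ercc3 0.054 and Gtf2h4 -0.018 (the mitotic-list contrast). With no filter on low counts the values were Mnat1 0.013 (treatment in tumor-like nuclei), Gtf2h4 0.0051 (the interaction), Ercc3 0.0096 (tumor-like against endothelial-like) and Ercc2 -0.00090 (the mitotic-list contrast). With Leiden resolution 0.5 the values were Mnat1 0.028 (treatment in tumor-like nuclei), Mnat1 -0.013 (treatment in fibroblast-like nuclei), Mnat1 0.0098 (the interaction) and Ercc2 0.081 (tumor-like against endothelial-like). With nuclei of at least 1000 UMIs the values were Gtf2h4 0.044 (the interaction), Ercc2 0.032 (tumor-like against endothelial-like) and Gtf2h3 -0.068 (tumor-like against myocyte-like). Without shallow myocyte-like clusters the values were Gtf2h1 -0.025 and Gtf2h3 -0.044 (tumor-like against myocyte-like). With 2 times the doublet rate removed the values were Gtf2h3 -0.031 (tumor-like against myocyte-like) and Ercc2 -0.015 (the mitotic-list contrast). With no replicate block the values were Gtf2h3 -0.065 (tumor-like against myocyte-like) and Ercc3 0.12 and Mnat1 0.024 (the mitotic-list contrast). With list-positive at 2 UMIs the values were Mnat1 0.0075 (the mitotic-list contrast). The shallow myocyte-like clusters were left out as an alternative chosen after seeing the data. With each tumor left out, ranges that crossed 0 were as follows. For treatment in all retained nuclei these were Ercc2 -0.072 to 0.15, Ercc3 -0.022 to 0.097, Gtf2h1 -0.13 to 0.11, Gtf2h5 -0.16 to 0.10 and Mnat1 -0.0014 to 0.17. For treatment in tumor-like nuclei these were Ercc2 -0.21 to 0.033, Ercc3 -0.0094 to 0.11, Gtf2h1 -0.18 to 0.052, Gtf2h5 -0.10 to 0.13 and Mnat1 -0.038 to 0.059. For treatment in fibroblast-like nuclei these were Gtf2h2 -0.075 to 0.032, Gtf2h3 -0.16 to 0.0069, Cdk7 -0.14 to 0.10 and Mnat1 -0.078 to 0.17. For the interaction these were Ercc3 -0.15 to 0.0015, Gtf2h4 -0.28 to 0.17, Cdk7 -0.023 to 0.18 and Mnat1 -0.20 to 0.068. For tumor-like against endothelial-like these were Ercc2 -0.15 to 0.058 and Ercc3 -0.099 to 0.088. For tumor-like against myocyte-like these were Gtf2h3 -0.13 to 0.12. For the mitotic-list contrast these were Ercc2 -0.094 to 0.082, Ercc3 -0.046 to 0.11, Gtf2h2 -0.0010 to 0.059, Gtf2h4 -0.15 to 0.12 and Mnat1 -0.032 to 0.018.

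Genes under 10 CPM (Gtf2h3, Gtf2h4) and classes with few nuclei are limited by depth.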

Other observations

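The 6647 nuclei left unnamed held the 10 genes at a summed 610 ± 76.3 CPM over the 4 tumors that had enough of them (SD), and 5711 of these nuclei came from untreated tumor 4. Cdk7 ranged from 139 to 320 CPM there, the highest value resting on 15 UMIs.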
